A study of Mus musculus with 20 samples.

Results

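Elastic fibres give the dermis its recoil. Their core is elastin, laid down on a scaffold of microfibrils whose backbone is fibrillin, and small glycoproteins of the fibulin and microfibril-associated families guide the deposition and crosslinking of elastin. In skin these proteins come mainly from dermal fibroblasts, and loss or disorder of elastic fibres is a known feature of aged skin. The 10 genes described here are Eln (elastin), Fbn1 and Fbn2 (fibrillins), Mfap2, Mfap4 and Mfap5 (microfibril-associated proteins) and Fbln1, Fbln2, Fbln5 and Efemp2 (fibulins). They were taken by symbol from the 46744 rows of the deposited table. Each had a single row of its own, which carried no other symbol.

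RNA of whole skin from C57BL/6 mice was sequenced in 20 samples. Control mice of genotype Sod2+/+ gave 5 samples at 50 days, 2 at 100 days, 3 at 300 days and 4 at 700 days. Mice with a conditional knockout (cKO) of Sod2, which encodes the mitochondrial superoxide dismutase, carried the genotype Sod2-/- and gave 3 samples at 100 days and another 3 at 300 days. The labels name neither the Cre driver nor the cells in which the gene was deleted. The 50- and 700-day groups have sample titles that begin with CO-Skin and the other 4 groups titles that begin with S2-Skin, so ratios were taken only within a prefix.

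Each group has 1 value per gene, in FPKM (fragments per kilobase of transcript model, normalised for the number of mapped fragments). No value per sample was used, so no value below has a replicate spread, an error or a test, and neighbours in an order of levels cannot be separated. How many reads each group rests on is unknown. A difference was measured as the log2 ratio of (FPKM + 1) and counted where its size reached 1. It was computed for 12271 named genes whose 6 group values averaged 1 FPKM or more. Of the 10 genes 9 passed this filter, and Fbn2, with a mean of 0.678 FPKM, did not.

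The labelled tissue and genotype were checked first. Krt5, a keratin of basal keratinocytes, was between 358 and 1564 FPKM and Dcn, a proteoglycan of dermal fibroblasts, between 193 and 316 FPKM in the 6 groups. Sod2 was 27.7 FPKM in control and 17.6 in cKO skin at 100 days, and 23.5 and 16.8 FPKM at 300 days. Of the Y-linked genes Uty, Kdm5d, Eif2s3y and Ddx3y, all 4 were at least 14.7 FPKM in the 700-day controls and both cKO groups and at most 0.347 FPKM in the 50-, 100- and 300-day controls. Age in the old against young comparison, and genotype at each age, therefore cannot be told apart from this sex-linked difference.

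The series title names JunB, which forms part of AP-1 transcription factors, so the upstream sequence of the members was searched for the AP-1 letters. Windows from 250 to 11 bases before each RefSeq transcript start (GRCm38.p6, 240 bases) were found for 6 members, 11 windows in all. These members are Fbn1, Mfap2, Fbln1, Fbln2, Fbln5 and Efemp2. The AP-1 letters TGANTCA, which read the same on both strands, were in none of the 11 windows and in 6.58% of all 32851 windows. The GC box GGGCGG, on either strand, was in 7 of the 11 and in 31.3% of all. Windows of the same gene can share bases, so a site may be counted more than once, and no count per gene was made. The TATA letters TATAAA, on either strand, were in none of the 11 and in 12.1% of all. Of these motifs only the GC box was found in the windows printed here, so different motifs could not overlap there. A match describes letters only, and a window without one says nothing of the factor.

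Windows free of annotated exons of protein-coding genes are shown for 4 members. Mfap2 and Efemp2 had the smallest differences in pattern from Eln among the members (0.086 and 0.126, measured as described at the end). Efemp2 was as close to Fbln5 (0.126), and the pseudocount shrinks the differences of the low gene Mfap2. Of the genes past the filter, Fbln1 and Fbln5 had the log2 ratios nearest 0 in old against young control skin and in cKO skin at 100 days. These are not separate groups of pattern. Each window is written 5′ to 3′ on the strand of its gene, with GC boxes in capitals. The window of Mfap2 is chr4:141010174-141010413 (plus strand), that of Efemp2 chr19:5473696-5473935 (plus), that of Fbln1 chr15:85205699-85205938 (plus) and that of Fbln5 chr12:101819130-101819369 (minus).
Mfap2: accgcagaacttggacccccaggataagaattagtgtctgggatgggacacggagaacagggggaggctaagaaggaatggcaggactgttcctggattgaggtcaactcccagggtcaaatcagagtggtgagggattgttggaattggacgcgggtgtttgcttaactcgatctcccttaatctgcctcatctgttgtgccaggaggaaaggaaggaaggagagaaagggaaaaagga
Efemp2: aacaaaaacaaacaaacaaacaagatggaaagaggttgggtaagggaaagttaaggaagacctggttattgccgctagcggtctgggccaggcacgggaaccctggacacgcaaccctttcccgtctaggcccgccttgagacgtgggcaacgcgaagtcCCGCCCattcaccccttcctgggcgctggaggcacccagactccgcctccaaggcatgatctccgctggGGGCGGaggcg
Fbln1: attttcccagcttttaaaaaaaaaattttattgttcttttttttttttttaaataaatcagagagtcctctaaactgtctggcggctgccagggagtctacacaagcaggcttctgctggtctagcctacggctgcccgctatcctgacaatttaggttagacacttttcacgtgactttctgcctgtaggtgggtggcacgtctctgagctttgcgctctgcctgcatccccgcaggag
Fbln5: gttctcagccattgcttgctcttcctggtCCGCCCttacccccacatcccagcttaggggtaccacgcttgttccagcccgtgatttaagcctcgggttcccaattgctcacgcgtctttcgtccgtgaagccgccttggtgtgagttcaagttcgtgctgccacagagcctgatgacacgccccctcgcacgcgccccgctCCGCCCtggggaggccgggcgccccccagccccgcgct
The windows of Efemp2 and Fbln5 hold 2 GC boxes each, and those of Mfap2 and Fbln1 hold none. GC content was 51.3% for Mfap2, 59.6% for Efemp2, 45.8% for Fbln1 and 65% for Fbln5.

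Levels came first. Fbn1, the main fibrillin of adult tissue, had the highest FPKM of the 10 genes in every group, and Fbn2, a fibrillin known chiefly from development, the lowest. Fbn1 was 22.2 FPKM in the 50-day and 9.11 in the 700-day controls. In the other prefix it was 32.6 FPKM in control and 21.2 in cKO skin at 100 days, and 41.0 and 25.1 FPKM at 300 days. Within each prefix and age the old or cKO group was the lower one. Fbn2 was 0.354 FPKM at 50 days and 0.139 at 700 days, 1.32 in control and 0.726 in cKO skin at 100 days, and 0.802 and 0.726 FPKM at 300 days. Fbn1 was thus between 24.6 and 65.3 times the FPKM of Fbn2.

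Eln, the elastic core protein, was 9.13 FPKM at 50 days and 5.85 at 700 days in controls. At 100 days it was 14.9 FPKM in control and 9.90 in cKO skin, and 15.5 and 10.7 FPKM at 300 days. In the FPKM as deposited, the control and cKO levels were nearly the same at the 2 ages of the second prefix. Eln ranked 4th of the 10 genes in all groups but the 300-day cKO, where it was 3rd.

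Mfap5 and Mfap2 encode the 2 microfibril-associated glycoproteins that bind fibrillin (MAGP-2 and MAGP-1). Mfap5 was 9.0 FPKM at 50 days and 2.24 at 700 days, 23.7 in control and 10.5 in cKO skin at 100 days, and 16.1 and 9.77 FPKM at 300 days. At 50 days its FPKM was 4.01 times that at 700 days, the widest gap of the 10 genes in that prefix, and among the 4 groups of the other prefix its highest value was 2.42 times its lowest. Mfap2 was 2.99 and 1.46 FPKM at 50 and 700 days, 4.48 in control and 2.52 in cKO skin at 100 days, and 4.04 and 3.23 FPKM at 300 days. Mfap4, a fibrinogen-like protein that binds elastin and fibrillin, had another order of groups. Mfap4 reached 10.3 FPKM at 50 days and 3.33 at 700 days, 8.05 in control and 3.62 in cKO skin at 100 days, and 8.07 in control and 10.4 in cKO skin at 300 days. The 300-day cKO was its highest group and the 700-day control its lowest.

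Among the fibulins, Fbln2 was highest, at 10.3 and 6.48 FPKM in the 50- and 700-day controls, 15.7 in control and 13.1 in cKO skin at 100 days, and 18.4 and 15.6 FPKM at 300 days. Efemp2 (fibulin-4), which helps bring the crosslinking enzyme lysyl oxidase to tropoelastin, was 4.42 and 2.59 FPKM, then 8.33 and 6.31, then 7.21 and 5.90 FPKM in the same order. Fbln1, found in elastic fibres and basement membranes, varied least of the 10 genes within each prefix: it was 6.50 and 6.03 FPKM, then 6.73 and 6.81, then 5.79 and 7.75 FPKM in that order. Fbln5, which binds tropoelastin and cell surface integrins, was 2.01 and 1.37 FPKM, then 2.38 and 2.37, then 2.29 and 1.67 FPKM. The higher value of Fbln1 was 1.08 times the lower in the first prefix, and its highest was 1.34 times its lowest in the second. For Fbln5 these were 1.47 and 1.42 times.

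**Figure D1:**
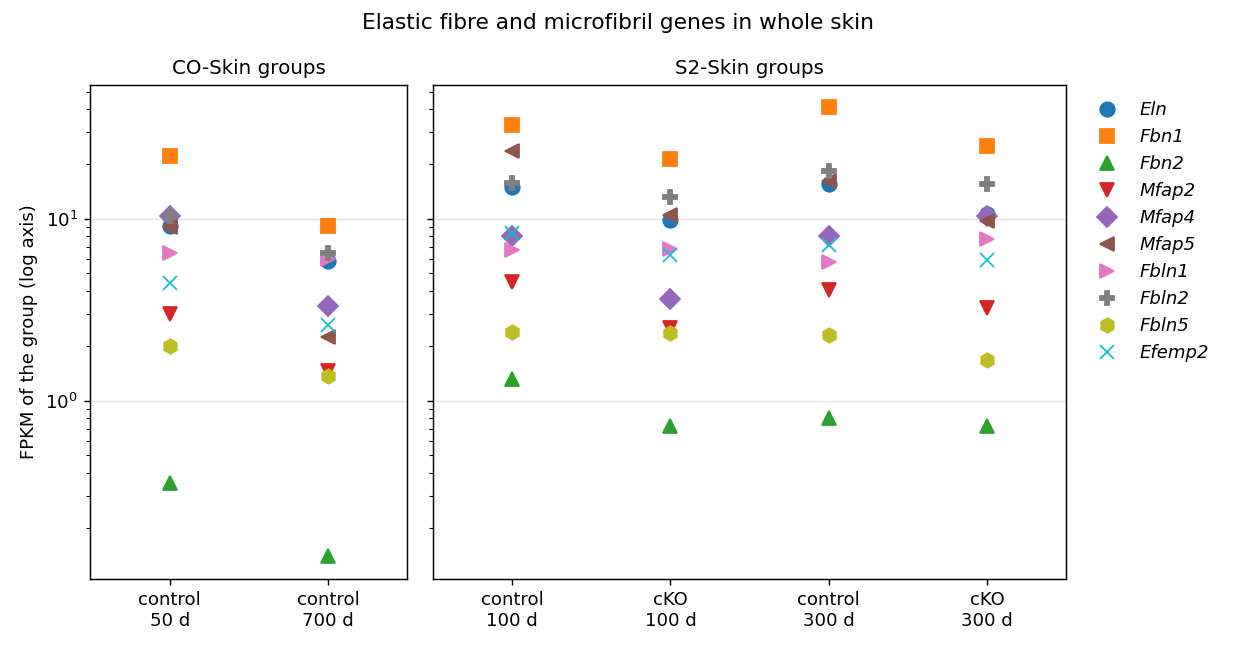
FPKM of the 10 genes (log axis) in each group, with 1 point per gene and group and no error bars, since each group has a single value. Fbn1 is the highest and Fbn2 the lowest gene in all 6 groups, and Mfap4 is the gene whose place changes most between the cKO groups (3.62 and 10.4 FPKM).

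The first comparison asked how these genes differed between control skin of 700 and of 50 days. All 10 had a lower FPKM at 700 days, as had 55.0% of all genes tested. However, Eln, Fbln1, Fbln2 and Fbln5 were on the higher side once levels were rescaled to the dermal fibroblast markers described below. That scale moved the median of all genes tested to 0.61, and each of these genes lay below it. In all, 3 of the 9 genes that passed the filter were past the size counted, all lower: Mfap5 (log2 ratio -1.62, 24.9% of the 50-day FPKM), Mfap4 (-1.38, 32.3%) and Fbn1 (-1.20, 41.0%). On the scale of the fibroblast markers these were -1.13, -0.82 and -0.55, so that Mfap5 alone was past it. Among all genes tested 3.24% were lower and 0.627% higher by that size. The median of the 9 log2 ratios was -0.60, beside -0.03 over all genes tested. Mfap2, Fbln2, Efemp2 and Eln followed with log2 ratios of -0.70, -0.60, -0.59 and -0.56, and Fbln5 and Fbln1 were at -0.34 and -0.09. Fbn2 was at 39.4% of its 50-day FPKM, from a level too low to be counted.

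The microfibril genes were therefore unequally lower. The summed FPKM of the 10 genes was 77.2 at 50 days and 38.6 at 700 days, and within this sum the share of Mfap5 was 11.6% and 5.80%, that of Mfap4 13.3% and 8.62% and that of Fbn1 28.8% and 23.6%. The share of Fbln1 was 8.42% and 15.6%. Ratios between genes within a group do not depend on how groups are scaled. Mfap5 was 3.0 times the FPKM of Mfap2 at 50 days and 1.54 times at 700 days, and Fbn1 was 2.44 and 1.56 times that of Eln.

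**Figure D2:**
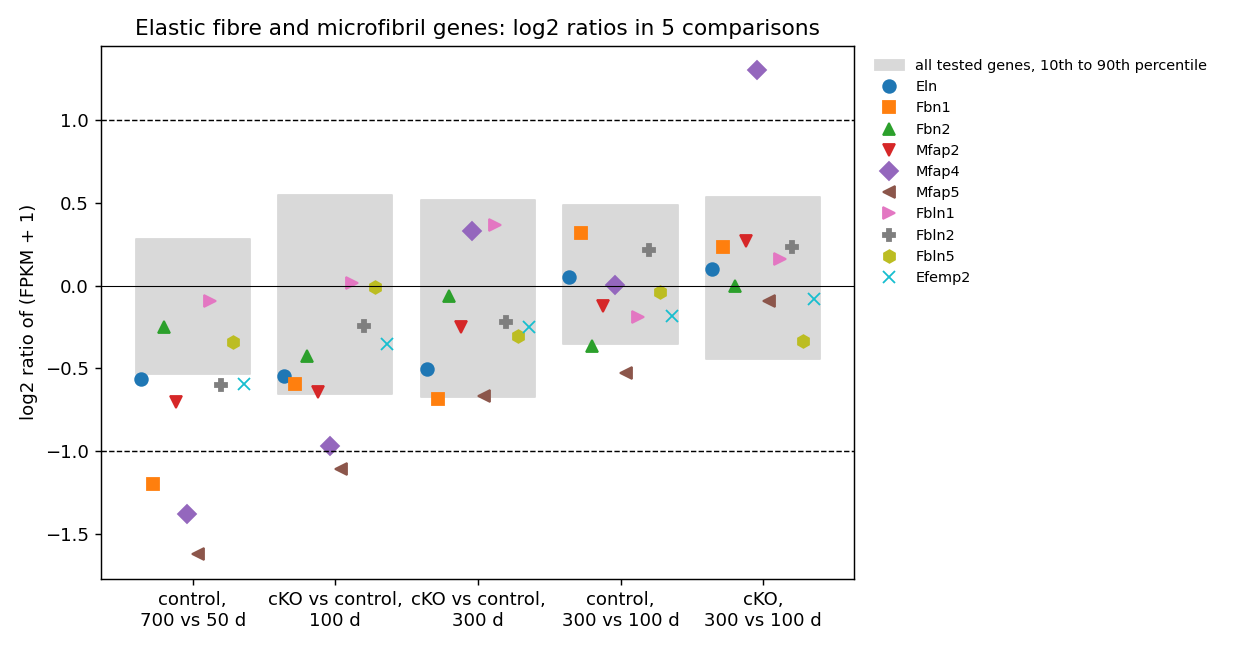
Log2 ratio of (FPKM + 1) of the 10 genes in the 5 comparisons, with the 10th to 90th percentile of all 12271 genes tested in grey and dashed lines at the size counted. Mfap5, Mfap4 and Fbn1 lie below -1 in old against young control skin, Mfap5 in cKO skin at 100 days, and Mfap4 lies above 1 in cKO skin of 300 against 100 days (0.995 after rescaling to the fibroblast markers).

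The second comparison set cKO against control skin at an age of 100 days. Mfap5 was the one gene of 9 past the size counted (log2 ratio -1.11, 44.2% of the control FPKM), against 4.29% of all genes tested that were lower and 2.23% that were higher by that size. Mfap4 was just short of it, at -0.97 and 45.0% of the control, and past it with a pseudocount of 0.1 (-1.13). Mfap2, Fbn1 and Eln had log2 ratios of -0.64, -0.60 and -0.55, and Efemp2 and Fbln2 -0.35 and -0.24. Fbln5 (-0.01) and Fbln1 (0.02) were nearly level, with a sign that changed with the scaling. The median was -0.55, beside 0.02 over all genes tested. With levels rescaled to the fibroblast markers Eln, Fbn1, Fbln1, Fbln2, Fbln5 and Efemp2 had positive log2 ratios and none was past the size counted. Over all genes tested the median was 0.58 on that scale. Fbln1, the highest of these genes, was at 0.58, and Eln and Fbn1 were at 0.06 and 0.04. Mfap5 was 5.28 times the FPKM of Mfap2 in control and 4.16 times in cKO skin, while Fbn1 was 2.18 and 2.14 times that of Eln.

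The third comparison made the same contrast at 300 days. None of the 9 genes was past the size counted, beside 5.11% of all genes tested that were lower and 1.88% that were higher. Fbn1 (log2 ratio -0.69), Mfap5 (-0.67) and Eln (-0.50) had the largest sizes, at 61.3%, 60.6% and 68.7% of the control FPKM. Fbln5, Mfap2, Efemp2 and Fbln2 had log2 ratios between -0.30 and -0.22. Mfap4 (0.33) and Fbln1 (0.37) had a higher FPKM in cKO skin under every scaling tried. The median was -0.25, beside -0.01 over all genes tested. Fbn1, Eln and Mfap5 thus had log2 ratios of -0.60, -0.55 and -1.11 at 100 days and of -0.69, -0.50 and -0.67 at 300 days, and Mfap4 had -0.97 and 0.33. Rescaled to the fibroblast markers, Fbn1, Eln and Mfap5 had 0.04, 0.06 and -0.49 at 100 days and -0.47, -0.29 and -0.46 at 300 days, and Mfap4 had -0.41 and 0.52. Over all genes tested the medians on that scale were 0.58 at 100 days and 0.18 at 300 days. These 2 genotype contrasts have no group in common, and the differences between them were not tested.

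The comparisons of age within a genotype share groups with the genotype contrasts. In control skin of 300 against 100 days none of the 9 genes was past the size counted, while 3.44% of all genes tested were higher and 1.03% lower. Mfap5 had the largest size (log2 ratio -0.53) and Fbn1 the highest value (0.32). The median was -0.04 (0.03 over all genes tested). Eln (0.05) and Mfap4 (0.00) were level, and both were on the lower side under 3 of the scalings tried. In cKO skin Mfap4 was the one gene of 9 past the size counted, with a log2 ratio of 1.30 and 287% of its 100-day FPKM. Of all genes tested 2.4% were higher and 1.5% lower. The other 8 genes lay between -0.33 (Fbln5) and 0.27 (Mfap2), and the median of the 9 was 0.16 (0.02 over all genes tested). With rescaling to the fibroblast markers Mfap4 alone of the 10 genes was on the higher side, at 0.995, just short of the size counted. Over all genes tested the median was -0.30 on that scale.

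**Figure D3:**
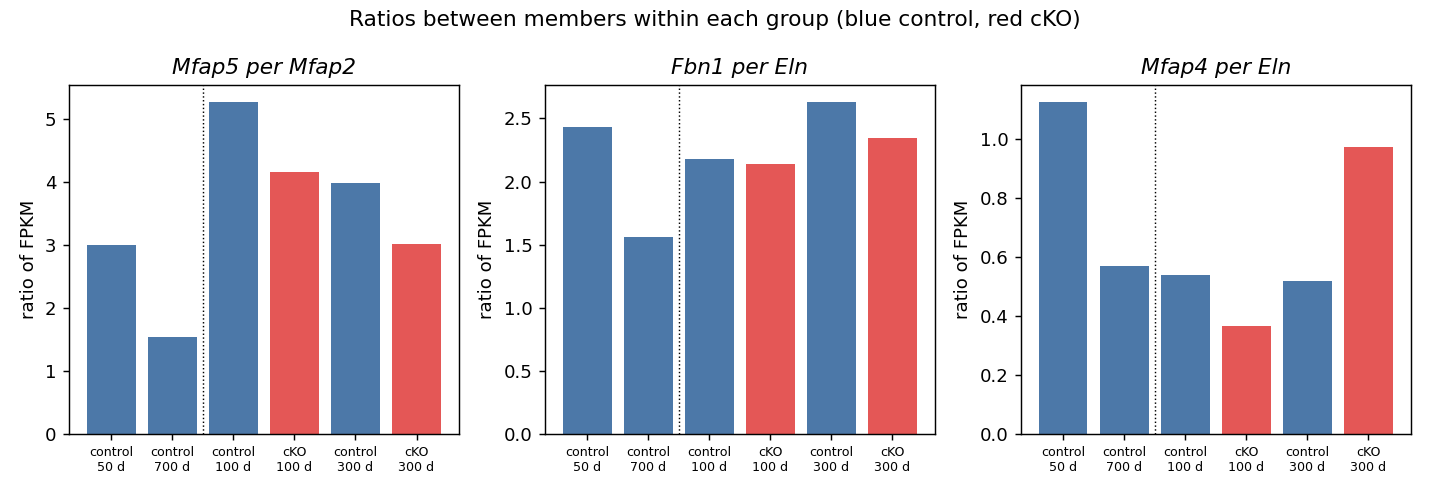
Ratios of FPKM between pairs of genes in each group (bars from 0, no error bars; the dotted line separates the prefixes). Mfap5 per Mfap2 ranges from 1.54 (700-day control) to 5.28 (100-day control), Fbn1 per Eln from 1.56 to 2.63, and Mfap4 per Eln from 0.366 (100-day cKO) to 1.13 (50-day control).

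Genes of other cells differed in the same comparisons. In whole skin, fewer cells of a type and less RNA per cell cannot be told apart. Of 15 dermal fibroblast markers tested, 3 were lower past the size counted at 700 days (Fstl1 at 13.8 against 31.5 FPKM, Dpt at 19.1 against 41.2 and Fap at 2.93 against 6.93). All 15 had negative log2 ratios, as had 55.0% of all genes tested. The median of the markers was -0.61, beside -0.60 for the elastic fibre genes. In cKO skin at 100 days 3 fibroblast markers were lower and 1 higher, with Lum at 18.0 against 64.4 FPKM and Dpp4 at 33.8 against 12.9 FPKM, and their median was -0.81. At 300 days 2 were lower and none higher, Pi16 at 7.79 against 25.6 FPKM and Thy1 at 18.7 against 45.0 FPKM, with a median of -0.25. Short of that size, 11 of the 15 were below 0 in all and 4 above. Among the 4 were Dcn at 298 against 193 FPKM and Sparc at 445 against 275 FPKM. The summed FPKM of the 15 markers was 799 at 50 and 519 at 700 days, 1068 in control and 765 in cKO skin at 100 days, and 928 and 1112 FPKM at 300 days. None of the 15 is listed at 0 in a group.

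Other tissue layers differed as well. The summed FPKM of 7 skeletal muscle genes was 3072 at 50 and 76.6 at 700 days, and that of 8 adipocyte genes 415 and 121 FPKM. In cKO against control skin the muscle sum was 11092 against 17125 FPKM at 100 days and 15722 against 14507 at 300 days, and the adipocyte sum 851 against 2423 and 810 against 1739 FPKM. The keratinocyte sum (8 genes) was 10295 FPKM at 700 days against 8369 at 50 days, and higher in cKO than in control skin at both ages (2887 against 2252 FPKM and 3674 against 2357 FPKM). The endothelial sum (7 genes) was lower in each of the 3 contrasts, at 29.4 against 42.4, 62.9 against 88.6 and 48.3 against 80.7 FPKM. Smooth muscle, another source of elastin in vessel walls, had medians of 0.05, -0.12 and -0.18 over 8 genes. Its sum was 97.5 FPKM at 700 against 142 at 50 days, with Des alone past the size counted (9.86 against 57.6 FPKM). In cKO against control skin the smooth muscle sum was 278 against 321 FPKM at 100 days and 357 against 330 at 300 days. Of the cartilage genes, Col2a1 was at most 0.371 FPKM in any group, and listed at 0 in the 300-day cKO, while Acan was highest in the 100-day cKO at 2.48 FPKM. Of the cell type lists, simple and glandular epithelium had the largest median difference between cKO and control skin at both ages (-4.88 and -3.33). B and T cell genes had a median of 0.14 at 100 days, with none past the size counted, and -2.82 at 300 days. The summed FPKM of 6 simple and glandular epithelium genes (Krt8, Krt18, Krt19, Wfdc2, Aqp5 and Ltf) was 393 in control and 5.97 in cKO skin at 100 days, and 108 and 4.35 at 300 days, with all 6 lower past the size counted at both ages and Wfdc2 listed at 0 in the 300-day cKO. It was 2.25 at 700 against 41.7 at 50 days, with 5 of 6 lower. The sum of 6 B and T cell genes was 79.3 FPKM in the 300-day controls. It was 7.64 FPKM in the 300-day cKO and 4.57 in the 100-day controls. All 6 were past the size counted in cKO against control skin at 300 days and in control skin of 300 against 100 days. Both comparisons use the 300-day controls. The same sum was 6.11 FPKM in the 100-day cKO, and 22.1 and 14.4 at 50 and 700 days. Ms4a1 was listed at 0 in the 50- and 100-day controls and the 300-day cKO, and Cd79b at 50 days. The part of these cell types in the differences above was not tested.

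**Figure D4:**
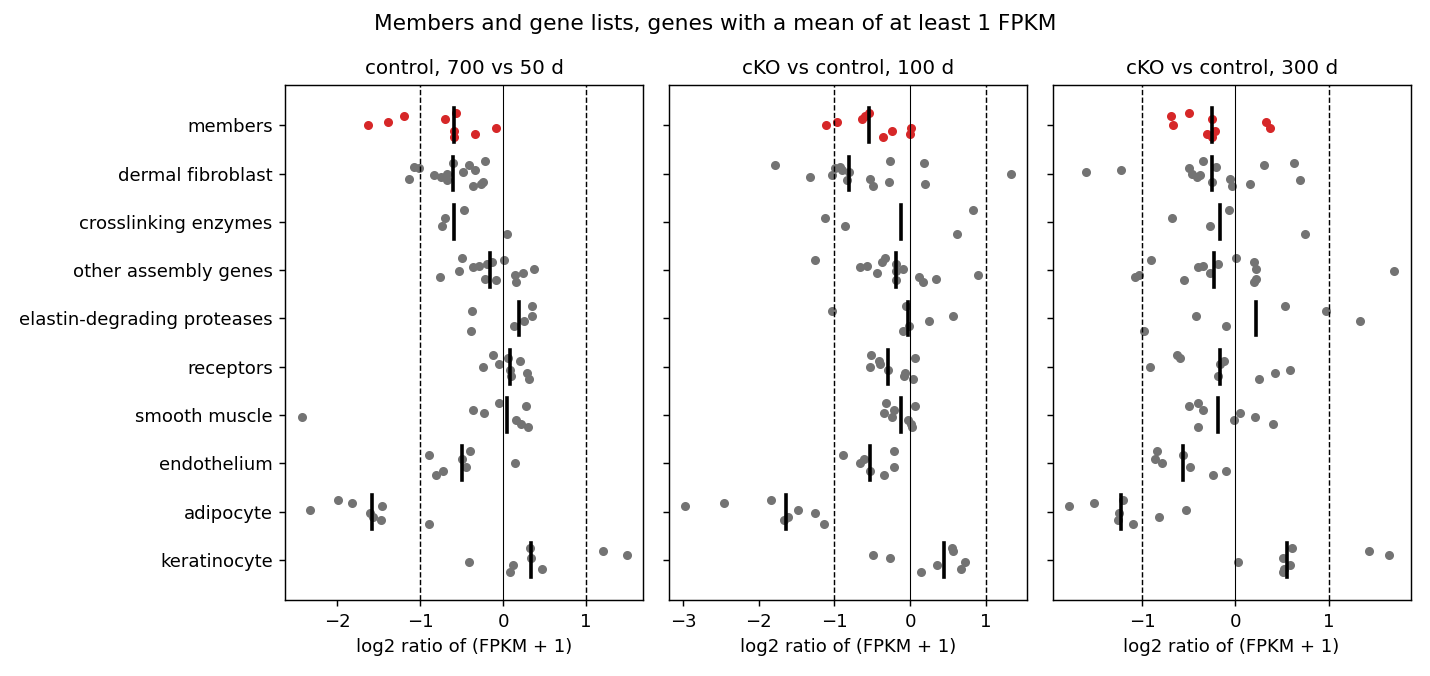
Log2 ratio of (FPKM + 1) of each gene (points) and the median of each list (black bars) in old against young control skin and in cKO against control skin at 100 and 300 days, for genes that passed the filter. The elastic fibre genes (red) and the fibroblast markers have medians of -0.60 and -0.61, -0.55 and -0.81, and -0.25 and -0.25, as deposited and not rescaled. Endothelial genes have medians of -0.49, -0.54 and -0.57 in the same order.

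The enzymes and partners of elastic fibre assembly were read from lists written apart from the members. Lysyl oxidases crosslink tropoelastin and collagen. Of the 4 tested (Lox, Loxl1, Loxl3 and Loxl4), none was past the size counted at 700 days (median -0.59) and 1 was at 100 days in cKO skin. That gene, Loxl1, the member of the family tied most closely to elastin, stood at 2.14 FPKM in cKO and 5.87 FPKM in control skin (log2 ratio -1.13), and 3.55 against 6.29 FPKM at 300 days (-0.68). The list was split at 100 days, with a median of -0.12. Lox, the enzyme with the highest FPKM of the 4 in each group, was 16.6 against 8.91 FPKM (0.83), Loxl4 had a log2 ratio of 0.62 and Loxl3 one of -0.86. At 300 days Lox was 9.0 against 9.46 FPKM and the median was -0.17. Loxl2 shares its row with a microRNA symbol and was not counted.

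Of 14 other assembly genes tested, none was past the size counted at 700 days (median -0.16). In cKO skin at 100 days 1 was lower, Ltbp2, a fibrillin-binding protein of the LTBP family, at 5.18 against 13.8 FPKM (log2 ratio -1.26). At 300 days 1 was higher and 2 lower. Hmcn1 (hemicentin-1) stood at 21.6 against 5.95 FPKM (1.70). Adamts10 and Adamtsl4, which bind fibrillin-1, were 4.72 against 11.1 FPKM (-1.08) and 9.62 against 20.6 FPKM (-1.03). Adamtsl4 was also 20.6 FPKM in 300-day against 7.60 in 100-day control skin. Ltbp4, which works with fibulin-5 in elastin deposition, was 16.7 and 14.5 FPKM at 50 and 700 days, 25.5 and 22.3 in control and cKO skin at 100 days, and 29.5 and 25.8 FPKM at 300 days.

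Of 6 elastin-degrading proteases tested none was past the size counted at 700 days (median 0.19), 1 was lower in cKO skin at 100 days and 1 higher at 300 days. The lower one was Mmp9, at 1.00 against 3.10 FPKM, which is under the level set for naming and is named because it is the only one. The higher one was the cathepsin Ctsk, at 37.2 against 14.2 FPKM (log2 ratio 1.33). Mmp9 was 5.77 FPKM in cKO skin at 300 days. Ctss, a cathepsin of macrophages and other antigen-presenting cells, was 40.3 FPKM in 300-day and 16.3 in 100-day control skin (log2 ratio 1.25). Of 9 elastin and microfibril receptor genes none was past the size counted in any of the 5 comparisons, with medians between -0.29 and 0.09.

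In GENCODE release M21 of GRCm38 (mm10) the 10 genes lie on 9 chromosomes, Mfap5 (122505845 to 122529290) and Fbln2 (91212455 to 91272540) both on chromosome 6. Eln is on chromosome 5 from 134702593 to 134747323, Fbn1 on chromosome 2 from 125300594 to 125507993 and Mfap4 on chromosome 11 from 61485431 to 61488900. Mfap2 is on chromosome 4 from 141010418 to 141015984, Fbln1 on chromosome 15 from 85205949 to 85286535, Fbln5 on chromosome 12 from 101746565 to 101819055, Efemp2 on chromosome 19 from 5473954 to 5482517 and Fbn2 on chromosome 18. Of these spans 5 overlap a gene on the opposite strand: Fbn1 by 2793 bases (Gm9913), Eln by 282 (Gm30003), Fbn2 by 236 (Gm26507), Efemp2 by 173 (Mus81) and Mfap4 by 89 (Mapk7). The libraries were directional, but the sources used here do not say whether strand was used in counting, so reads of the overlaps may be shared.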

How the data were processed

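Whole-skin RNA depleted of ribosomal RNA with 1 of 2 kits was sequenced for 75 cycles from directional libraries, per the labels. The labels do not say which sample had which kit. The authors deposited FPKM values, 1 column per group, made with HISAT2, Cufflinks and Cuffdiff against mm10, per the submitters' processing notes. Versions, the gene annotation and how samples of a group were combined are not given in the sources used here, and read depth is unknown.

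Groups came from the source names. Rows that carry several symbols (1057) were not used, and each symbol was represented by its row of highest mean (predicted genes, clones, small RNAs and pseudogenes dropped). Log2 ratios of (FPKM + 1), which understate the change of low genes, were counted at a size of at least 1 among 12271 genes that averaged 1 FPKM or more over the groups. With 1 value per group no test was made. The code for counting was run on simulated tables with large planted changes and an assumed noise. That run checked the code only and says nothing of the error in these data. The rule for names took all members, up to 4 genes per list and comparison past the size whose higher group reached 5 FPKM, Sod2, and the 5 genes nearest in pattern to Eln and to Fbn1. Not every gene it names among the fibroblast markers is reported. Members, lists and comparisons were chosen with earlier results of these data known. The alternatives used a pseudocount of 0.1 or 0.5, dropped the filter or raised it to 5 FPKM, applied 4 rescalings (1 added after seeing the data) or summed the rows of a symbol. Python 3.11.15, pandas 2.3.3, numpy 2.4.6 and matplotlib 3.10.9 were used.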

Additional observations from a re-analysis of the deposited data

How the results depend on the processing

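The table has 1 value per group, so leaving out samples was not possible. No paired analysis was possible because the columns carry no sample or replicate number. Of 395 log2 ratios of the 9 genes under 9 alternatives, 24 had another sign, none of them past the size counted as deposited. Only the rescalings could change a sign. Changing the filter or summing rows left the values of these genes as they were, and a pseudocount cannot reverse a sign. The share of 24 in 395 therefore does not measure how stable the signs were. Most of the 24 came from rescaling to the fibroblast markers. On that scale 6 genes were above 0 in cKO against control skin at 100 days, against 1 as deposited. Of all genes tested 48.1% were below 0 there as deposited. Genes past the size in cKO skin at 100 days numbered 2, with Mfap4 added, under pseudocounts of 0.1 and 0.5, equal totals (TPM) and equal totals without the 100 highest rows, which was chosen after seeing the data. Rescaling to the fibroblast markers moved the median of all genes to 0.61 in old against young skin, 0.58 and 0.18 in cKO skin at 100 and 300 days, and 0.09 and -0.30 in control and cKO skin of 300 against 100 days. With it 1 gene (Mfap5) was past the size at 700 days, 0 in cKO skin at 100 days and 0 in cKO skin of 300 against 100 days. The counts of members were otherwise as reported.

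Counts over all genes moved more. Old against young gave 474 genes as reported, 920 with a pseudocount of 0.1 and 1171 (940 higher, 231 lower, against 77 and 397) on the fibroblast scale. For cKO at 100 days the count was 801, and 1311 with a pseudocount of 0.1, 505 with a mean of at least 5 FPKM and 2014 on the fibroblast scale (1852 higher, 162 lower, against 274 and 527). Equal totals gave 246 higher and 807 lower there. For cKO at 300 days it was 858, and 425 with at least 5 FPKM. The fibroblast scale gave 383 higher and 420 lower, against 231 and 627. For control skin of 300 against 100 days it was 548, and 225 with at least 5 FPKM. Equal totals gave 372 higher and 241 lower, against 422 and 126. For cKO skin of 300 against 100 days it was 478, 864 with a pseudocount of 0.1 and 264 with at least 5 FPKM. The fibroblast scale gave 120 higher and 468 lower, against 294 and 184. Unknown depth limits most what can be said of Fbn2, Fbln5 and Mfap2.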

Other observations

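Other genes had patterns close to those of Eln and Fbn1 over the 6 groups. Likeness was the root mean square difference of the 6 log2(FPKM + 1) values, each centred on the mean of its title prefix, among 8669 other genes that averaged 5 FPKM or more. Nearest to Eln were Prdx3, a peroxiredoxin of mitochondria (difference 0.034), Tmem177 (0.035), Uqcr11 and Uqcc3, a subunit and an assembly factor of respiratory complex III (0.045 and 0.054), and Igsf10 (0.057). Prdx3 was 6.86 FPKM at 50 days and 4.31 at 700 days, 30.5 and 21.4 in control and cKO skin at 100 days, and 31.3 and 21.1 FPKM at 300 days. Of the members with at least 5 FPKM, Efemp2 came 161st (0.13), Fbln2 203rd (0.14) and Fbn1 1025th (0.21) in likeness to Eln. Fbln1 was 4552nd (0.33), Mfap5 6055th (0.38) and Mfap4 6987th (0.43). Mfap2, below that level, differed from Eln by 0.086, the smallest difference between any pair of members. The pseudocount of 1 FPKM shrinks the differences of a low gene. As plain FPKM, Mfap2 at 700 days was 48.7% of its 50-day level, and Eln 64.1%. In cKO against control skin Mfap2 was at 56.1% and 80.0% at 100 and 300 days, and Eln at 66.3% and 68.7%. Likeness was not computed with another pseudocount.

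Nearest to Fbn1 were Hacd1 (0.085), Vcan, the proteoglycan versican, which binds fibrillin-1 (0.10), Cygb, a globin of fibroblasts (0.11), and Prr33 and Mlip (0.11 each). Vcan was 7.54 and 2.32 FPKM at 50 and 700 days, 20.5 and 14.4 in control and cKO skin at 100 days, and 23.1 and 17.2 FPKM at 300 days. Hacd1 and Mlip are known from muscle. The summed FPKM of the skeletal muscle genes was far lower at 700 than at 50 days and lower in cKO than in control skin at 100 days. At 300 days it was higher in cKO skin (15722 against 14507 FPKM). Hacd1 (7.26 against 11.2 FPKM) and Mlip (13.1 against 18.5 FPKM) were lower in cKO skin at that age. The part of muscle in the pattern of Fbn1 was not tested. These ranks rest on 6 values per gene in 2 prefixes. Centring within a prefix leaves fewer than 6 of them free to vary, and the ranks are a description.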
